A study of Homo sapiens with 18 samples.

Results

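The ER folding, translocation and secretory machinery was followed here as a list of 40 genes, each read through its brightest annotated probe by mean over all 18 arrays. The list holds stress sensors and transcription factors, chaperones, disulfide isomerases, the translocon with signal peptidase, vesicle transport and retrieval proteins, and factors of ER-associated degradation. Of the 40 genes, 37 had a probe under their symbol in the array annotation and 36 were bright enough to be tested, of 14433 genes tested in all. SEC61G, KDELR2 and HERPUD1 had no probe under their symbols and were not analysed here, and ERN1 was measured but lay below the filter on dim probes.

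The cells were LNCaP, a human prostate cancer line that responds to androgen, kept in medium with charcoal-stripped serum, which is depleted of steroids. There were 6 groups of 3 arrays each: 10 nM DHT (dihydrotestosterone, the main androgen of the prostate) and its DMSO vehicle, 10 nM DHT with 1 µM flutamide and flutamide alone, and 10 nM DHT with 30 µM MJC13 and MJC13 alone, all for 24 h. Flutamide is a classic androgen receptor antagonist that competes with the hormone, and MJC13 is an antagonist directed at the receptor's surface. Values are log2 signals of single arrays, and the sources used here do not say whether the 3 arrays of a group came from separate cultures, so every p-value measures only the spread between these arrays.

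Proteins bound for secretion enter the ER through the SEC61 channel, lose their signal peptide, fold with the help of chaperones and disulfide isomerases, and leave in coated vesicles. When unfolded proteins build up, IRE1 splices the XBP1 mRNA, ATF6 is cleaved to a transcription factor, and PERK slows translation while favouring ATF4 and its targets. Broadly, XBP1 drives translocation, secretion and degradation genes and ATF6 drives folding chaperones, with much overlap between them. The luminal cell of the prostate is a secretory cell whose secreted products depend on androgen.

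Promoter sequences show the DNA words through which these arms are known to act. They are given for the members on which the comparisons turn and for the clearest examples of each word, as the 250 bases before the RefSeq start of each gene (GRCh38.p14), with the word in capitals. The ER stress element, ERSE, is CCAAT, 9 bases of any kind and CCACG, and it is marked in HSPA5 at chr9:125241344-125241593 on the minus strand and in XBP1 at chr22:28800570-28800819 on the minus strand. ERSE-II is ATTGG, 1 base of any kind and CCACG, found here in the other direction at 2 places in HYOU1 at chr11:119057206-119057455 on the minus strand. PDIA5 at chr3:123066775-123067024 on the plus strand held neither, and its 2 overlapping CCACG words are marked, 1 on each strand. KDELR3 at chr22:38467846-38468095 on the plus strand held the UPRE, TGACGTG followed by G or A, a word bound by spliced XBP1, on the opposite strand.
HSPA5: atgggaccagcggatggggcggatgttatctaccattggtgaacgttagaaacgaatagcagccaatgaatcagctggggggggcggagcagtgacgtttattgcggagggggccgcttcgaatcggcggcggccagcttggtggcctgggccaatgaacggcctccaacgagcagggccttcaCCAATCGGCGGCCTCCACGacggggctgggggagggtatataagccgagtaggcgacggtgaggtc
XBP1: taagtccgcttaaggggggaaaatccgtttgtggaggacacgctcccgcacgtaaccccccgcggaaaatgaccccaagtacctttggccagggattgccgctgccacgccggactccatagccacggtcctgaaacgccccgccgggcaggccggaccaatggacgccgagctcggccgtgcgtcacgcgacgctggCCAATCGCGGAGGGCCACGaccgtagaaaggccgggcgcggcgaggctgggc
HYOU1: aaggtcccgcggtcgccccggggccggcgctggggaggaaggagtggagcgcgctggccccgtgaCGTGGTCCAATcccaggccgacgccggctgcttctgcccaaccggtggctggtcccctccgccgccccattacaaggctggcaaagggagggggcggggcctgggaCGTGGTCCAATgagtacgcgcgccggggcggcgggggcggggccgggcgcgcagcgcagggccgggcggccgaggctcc
PDIA5: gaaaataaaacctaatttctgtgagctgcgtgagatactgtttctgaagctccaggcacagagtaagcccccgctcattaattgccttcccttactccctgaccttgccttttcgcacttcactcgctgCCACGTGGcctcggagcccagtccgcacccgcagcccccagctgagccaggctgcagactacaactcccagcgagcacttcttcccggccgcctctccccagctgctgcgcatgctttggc
KDELR3: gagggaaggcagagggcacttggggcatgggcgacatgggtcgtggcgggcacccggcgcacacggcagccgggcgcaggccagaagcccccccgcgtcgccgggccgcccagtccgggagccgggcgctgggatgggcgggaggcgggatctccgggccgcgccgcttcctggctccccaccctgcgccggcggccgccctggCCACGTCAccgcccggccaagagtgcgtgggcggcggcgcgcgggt

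The words were searched on both strands of the 300 bases around each start, 250 before and 50 after, in 36 member promoters and in 27303 promoters of all genes in the table. ERSE was in 5 member promoters (13.9%), those of XBP1, HSPA5, HSP90B1, CALR and CANX, against 0.0806% of all promoters. ERSE-II was in 3 (8.33%), those of HYOU1, SDF2L1 and HERPUD1, against 0.0549%, and the UPRE was in 4 (11.1%), those of HYOU1, KDELR3, COPB1 and COPB2, against 1.2%. CCAAT alone, which also lies within ERSE, was in 66.7% of member promoters against 35.7% of all, and CCACG alone, which overlaps ERSE, ERSE-II and one form of the UPRE, in 77.8% against 37.9%. The cyclic AMP element TGACGTCA was in none of the member promoters and in 1.98% of all. The androgen receptor word AGAACA, 1 arm of its full element, was in 1 member promoter, that of SSR3 (2.78%), and in 14.9% of all. A match is only a run of letters in this window, and no binding was measured.

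Across the series, 54 of 28334 probes passed the threshold for DHT against DMSO (limma, Benjamini-Hochberg adjusted p under 0.05), 50 of them higher with DHT. KLK2, a prostate kallikrein and androgen receptor target, was higher by 2.23 on the log2 scale (limma adjusted p = 0.0018), so a hormone response was measured on these arrays. Of the luminal prostate markers, KLK3, KLK2, TMPRSS2, HOXB13, KRT8, KRT18, FOLH1 and STEAP2 were above the filter. Of 18 markers of other cell types with a probe, 8 were below it, among them the basal keratins KRT5 and KRT14, the leukocyte markers PTPRC and CD3E and the endothelial marker CDH5, and the 10 above it included VIM (mean 10.58) and VWF (mean 9.58). The title numbers of the arrays pair DMSO and flutamide arrays in part, since the deviations of same-numbered arrays from their group means correlated at 0.17, 0.49 and 0.60 over probes, a description that also reflects whatever those arrays share.

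No member of the machinery rose or fell detectably with DHT. By limma, 0 of 36 members passed the threshold in either direction, beside 29 of 14433 genes (0.201%) higher and 1 gene (0.00693%) lower. At an unadjusted p under 0.05, 2 members were higher (PDIA5 and KDELR3) and 1 was lower (HSPA5), against 5.55% and 4.05% of all genes, shares close to the members' own. In bulk RNA such as this, a change in the number of cells of a kind and a change in RNA per cell cannot be told apart. The groups did not overlap for 4 members above (PDIA5, KDELR3, DNAJC3 and SPCS2) and 0 below, against 8.43% and 6.79% of all genes. The median member differed by 0.03 on the log2 scale, against -0.01 over all genes. Of the 36 members, 20 were above 0, as were 48% of all genes, and 26 lay within 0.25 of 0, where 64.5% of all genes lay. In the median member the 95% interval reached 0.40 to either side of the difference, so differences smaller than that were mostly not detectable with 3 arrays a group. The threshold on adjusted p is stricter than this interval, so differences larger than 0.40 could also go uncalled. PDIA5, with the largest difference of any member, did not pass it.

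**Figure D1:**
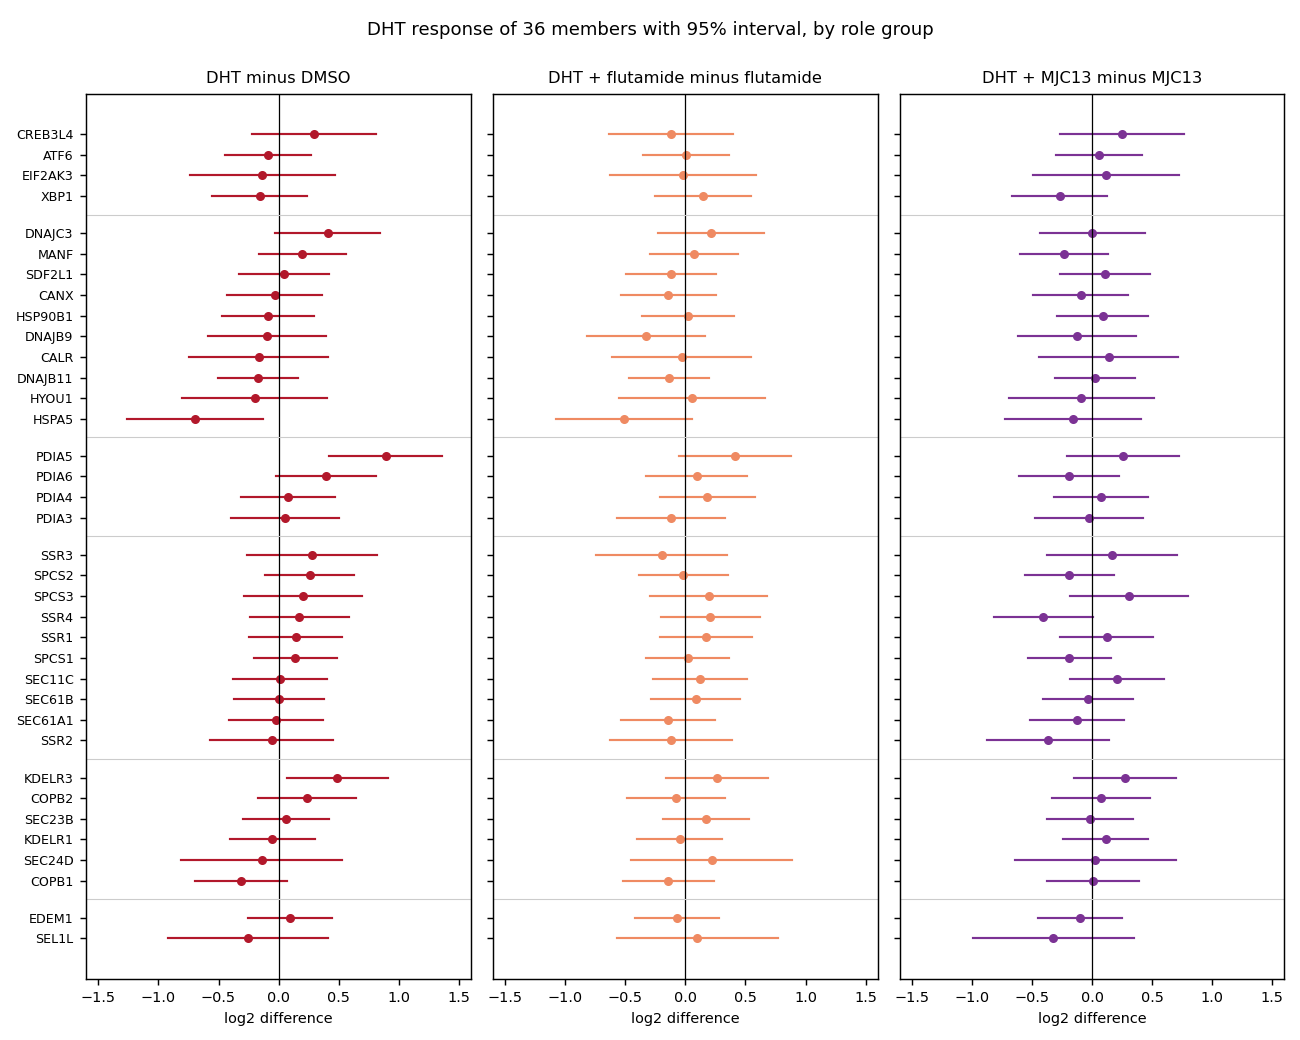
Log2 difference made by DHT (points) with its 95% interval (lines) for the 36 tested members, by role group from sensors at the top to degradation factors at the bottom, in DMSO, flutamide and MJC13 backgrounds from left to right. In the DMSO background PDIA5 lies farthest to the right at 0.89 and HSPA5 farthest to the left at -0.69, and most intervals cover 0.

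The stress sensors and the factors they release gave no difference between DHT and DMSO beyond the spread between arrays. XBP1, the transcription factor made active by IRE1, read 13.22, 13.15 and 13.54 with DHT, against 13.56, 13.43 and 13.39 with DMSO, and the groups overlapped. Its difference was -0.16 on the log2 scale (95% interval -0.55 to 0.24, limma adjusted p = 0.921), and a second XBP1 probe gave -0.02. These probes were not shown to tell spliced from unspliced XBP1, so the splicing itself was not measured.

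With flutamide, XBP1 read 13.14, 13.43 and 13.50 when DHT was added, against 13.10, 13.04 and 13.49 with flutamide alone. With MJC13 it read 13.02, 13.42 and 13.48 when DHT was added, against 13.65, 13.37 and 13.71 with MJC13 alone. The groups overlapped in both backgrounds. The tested genes whose 6 group means followed those of XBP1 most closely, of 14432 compared, were VAMP2 (Pearson r = 0.992), MARCHF9 (r = 0.991) and CSTPP1 (r = 0.989), a likeness over 6 means within a narrow range.

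ATF6, the sensor that is itself cleaved to a factor, read 12.05, 11.93 and 12.07 with DHT, against 12.04, 12.42 and 11.87 with DMSO. Its 3 DHT arrays lay within the range of the DMSO arrays. EIF2AK3, which encodes PERK, read 8.96, 8.65 and 8.84 with DHT, against 8.86, 8.44 and 9.56 with DMSO, and here too DMSO spanned the DHT values. CREB3L4, a prostate-enriched relative of ATF6, read 9.61, 10.02 and 9.36 with DHT, against 9.27, 9.07 and 9.79 with DMSO. The difference of 0.29 for CREB3L4 had a 95% interval of -0.22 to 0.81. ERN1, which encodes IRE1, read 5.88, 5.90 and 5.86 with DHT, against 5.89, 6.32 and 6.28 with DMSO, mostly under the filter value of 6.31, so it was not tested.

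In the antagonist backgrounds no other sensor passed the test either. ATF6 read 12.05, 12.11 and 12.19 with DHT and flutamide, against 12.03, 12.37 and 11.94 with flutamide alone, and 12.16, 11.97 and 12.13 with DHT and MJC13, against 12.04, 11.99 and 12.05 with MJC13 alone. EIF2AK3 read 9.53, 8.49 and 8.72 with DHT and flutamide, against 8.77, 8.85 and 9.18 with flutamide alone, and 9.30, 9.01 and 8.80 with DHT and MJC13, against 8.68, 8.69 and 9.37 with MJC13 alone. The ranges overlapped in all 4 of these comparisons. CREB3L4 read 9.40, 9.51 and 9.07 with DHT and flutamide, against 9.43, 8.94 and 9.98 with flutamide alone, with overlap. It read 9.57, 9.66 and 9.72 with DHT and MJC13, against 9.40, 9.49 and 9.31 with MJC13 alone, where the groups did not overlap, but the difference of 0.25 did not pass the test (limma adjusted p = 0.932). ERN1 lay between 5.88 and 6.02 on all 12 arrays with an antagonist.

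Among 10 chaperones and cochaperones, HSPA5, the ER chaperone BiP that holds the sensors silent, had the lowest DHT difference of any member. It read 9.94, 9.83 and 9.64 with DHT, against 10.76, 10.88 and 9.84 with DMSO. The first and second DMSO arrays lay above every DHT array, while the third lay among them. The difference was -0.69 (SE 0.27, 0.618-fold, limma adjusted p = 0.465), and without DMSO replicate 3 it was -1.02 (adjusted p = 0.136). Without DMSO replicate 1 it was -0.56 (limma adjusted p = 0.735), and without DMSO replicate 2 it was -0.50 (adjusted p = 0.825).

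HSPA5 read 9.81, 10.25 and 9.85 with DHT and flutamide, against 10.74, 10.80 and 9.89 with flutamide alone, a difference of -0.51. The third flutamide array was low in the same way as the third DMSO array. With DHT and MJC13 it read 10.33, 10.42 and 9.91, against 10.46, 10.45 and 10.23 with MJC13 alone, a difference of -0.16. The third DMSO array also stood apart for other chaperones: CALR, the lectin chaperone calreticulin, read 12.68, 12.72 and 12.33 with DHT, against 12.78, 12.17 and 13.28 with DMSO. HYOU1, a nucleotide exchange factor for BiP, read 10.41, 10.73 and 10.38 with DHT, against 10.57, 10.20 and 11.34 with DMSO. For CALR and HYOU1 the third DMSO array was the highest of its group, where for HSPA5 it was the lowest. The part of this array in the differences was not tested further than by leaving it out for HSPA5.

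DNAJC3, a cochaperone of BiP that also inhibits PERK, read 8.11, 8.25 and 8.56 with DHT, against 7.99, 7.86 and 7.84 with DMSO. Its DHT arrays all lay above its DMSO arrays, by 0.41 on average (95% interval -0.03 to 0.85, limma adjusted p = 0.645). With DHT and flutamide it read 7.72, 7.78 and 8.13, against 7.87, 7.42 and 7.70 with flutamide alone, and with DHT and MJC13 8.27, 7.68 and 8.20, against 7.96, 7.81 and 8.38 with MJC13 alone, with overlap in both. MANF, a secreted ER-resident factor, read 14.26, 14.09 and 14.02 with DHT, against 14.15, 13.93 and 13.70 with DMSO, with overlap. It read 13.71, 14.15 and 13.90 with DHT and flutamide, against 14.06, 13.87 and 13.63 with flutamide alone. With DHT and MJC13 it read 13.97, 13.84 and 14.01, against 14.19, 14.19 and 14.12 with MJC13 alone, so that here the arrays with DHT were the lower ones, by -0.23 on average (limma adjusted p = 0.906). The other chaperones, HSP90B1, CANX, DNAJB9, DNAJB11 and SDF2L1, differed by between -0.17 (DNAJB11) and 0.04 (SDF2L1).

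All 4 disulfide isomerases, which form and rearrange the disulfide bonds of secreted proteins, had positive differences with DHT, with a median of 0.24, and none passed the test. PDIA5 had the largest difference of any member. It read 10.21, 10.78 and 10.63 with DHT, against 9.57, 9.53 and 9.85 with DMSO, so that every DHT array lay above every DMSO array. The groups averaged 10.54 ± 0.29 with DHT and 9.65 ± 0.18 with DMSO (SD, n = 3 each), a difference of 0.89 (SE 0.22, 1.85-fold). With an unadjusted p of 0.000804, PDIA5 reached an adjusted p of 0.153 by limma over all probes tested.

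With DHT and flutamide PDIA5 read 9.97, 10.28 and 10.05, against 9.46, 9.66 and 9.95 with flutamide alone, and the groups still did not overlap. With DHT and MJC13 it read 10.37, 9.57 and 10.19, against 10.04, 9.70 and 9.62 with MJC13 alone, where the second array with DHT lay below all of the MJC13 arrays. The DHT difference was thus 0.41 with flutamide and 0.26 with MJC13. Flutamide altered it by -0.48 (95% interval -1.14 to 0.18) and MJC13 by -0.63 (95% interval -1.29 to 0.03), and neither passed the test (limma adjusted p = 1 and 0.999).

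PDIA6 read 10.46, 11.11 and 10.78 with DHT, against 10.44, 10.54 and 10.18 with DMSO, a difference of 0.39 with overlap (limma adjusted p = 0.635). It read 10.33, 10.69 and 10.59 with DHT and flutamide, against 10.41, 10.66 and 10.25 with flutamide alone, and 10.46, 10.39 and 10.51 with DHT and MJC13, against 10.96, 10.46 and 10.51 with MJC13 alone. The first MJC13 array was the high one, and both comparisons overlapped. PDIA4 read 9.75, 9.57 and 9.46 with DHT, against 9.48, 9.35 and 9.71 with DMSO. Its difference was 0.08, and it was 0.18 with flutamide and 0.07 with MJC13. PDIA3, the isomerase that works with the lectin chaperones, had a probe mean of 6.41, just above the filter, and its difference of 0.05 says little.

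**Figure D2:**
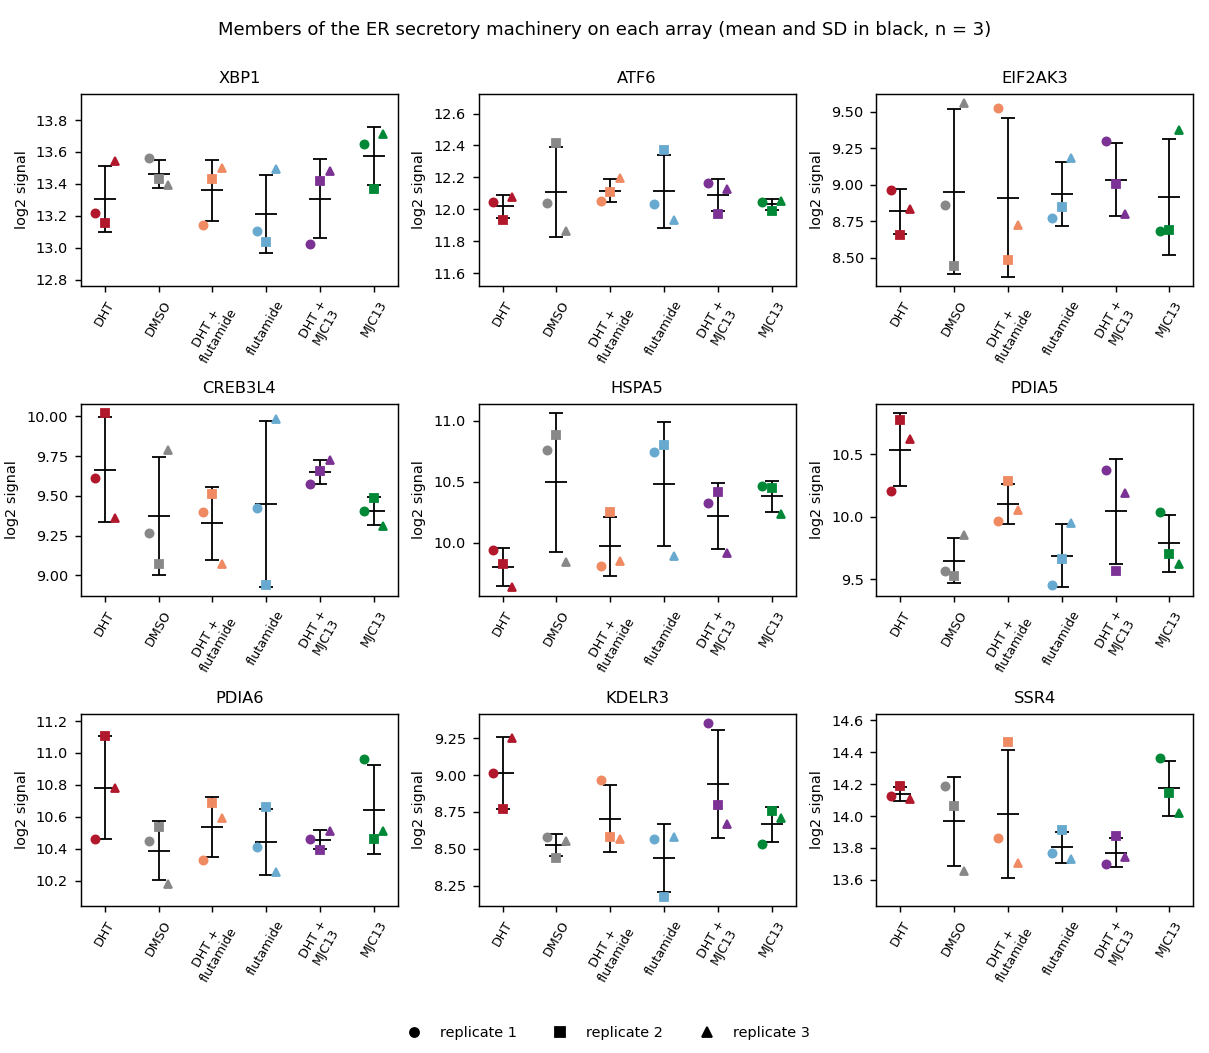
Log2 signal of 9 members on every array (symbols give the replicate number in the sample title), with group mean and SD in black (n = 3), in the order DHT, DMSO, DHT with flutamide, flutamide, DHT with MJC13 and MJC13. The 3 DHT arrays lie above the 3 DMSO arrays for PDIA5 and KDELR3, and the third DMSO and flutamide arrays are low for HSPA5.

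Of the 10 tested genes of the translocon and signal peptidase, 8 had positive differences with DHT, between -0.06 (SSR2) and 0.27 (SSR3), and none passed the test. SPCS2, a signal peptidase subunit, read 14.06, 13.97 and 13.98 with DHT, against 13.91, 13.77 and 13.56 with DMSO, a difference of 0.26 without overlap (limma adjusted p = 0.81). SSR3, a subunit of the translocon-associated protein complex, read 8.78, 8.05 and 8.62 with DHT, against 8.31, 8.54 and 7.79 with DMSO. SSR4, of the same complex, read 14.12, 14.19 and 14.11 with DHT, against 14.19, 14.06 and 13.65 with DMSO. SSR3 and SSR4 overlapped between the groups. SPCS2 read 13.63, 13.97 and 13.33 with DHT and flutamide, against 13.75, 13.66 and 13.57 with flutamide alone, and 13.78, 13.63 and 13.55 with DHT and MJC13, against 13.98, 13.87 and 13.68 with MJC13 alone, so that its separation was not seen there. SSR3 differed by -0.20 with flutamide and by 0.16 with MJC13. The channel subunits SEC61A1 (-0.03) and SEC61B (0.00) and the peptidase subunit SEC11C (0.01) were close to 0.

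SSR4 gave the largest difference between the antagonists in what DHT did. It read 13.86, 14.46 and 13.71 with DHT and flutamide, against 13.77, 13.92 and 13.73 with flutamide alone, and 13.70, 13.87 and 13.74 with DHT and MJC13, against 14.36, 14.14 and 14.02 with MJC13 alone. Every array with DHT and MJC13 lay below every MJC13 array, while the flutamide groups overlapped. The DHT difference was -0.40 with MJC13 and 0.21 with flutamide, and the contrast between them was -0.61 (95% interval -1.20 to -0.03, unadjusted p = 0.0407), which did not survive adjustment over all probes (limma adjusted p = 0.996). SSR4 was the only member at an unadjusted p under 0.05 in that contrast, beside 1.76% higher and 1.73% lower of all genes.

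KDELR3, a receptor that returns escaped ER proteins from the Golgi, led the vesicle transport genes. It read 9.02, 8.77 and 9.25 with DHT, against 8.58, 8.44 and 8.55 with DMSO, and the groups did not overlap. The difference was 0.49 (SE 0.20, 1.4-fold, limma adjusted p = 0.509), and its other 2 probes gave 0.66 and 0.28. It read 8.96, 8.58 and 8.56 with DHT and flutamide, against 8.57, 8.17 and 8.58 with flutamide alone. With DHT and MJC13 it read 9.35, 8.79 and 8.67, against 8.53, 8.76 and 8.71 with MJC13 alone. In both antagonist backgrounds the first array with DHT was the highest, the groups overlapped, and the differences were 0.26 and 0.27. The second KDELR3 probe gave -0.06 with MJC13, so the probes differ there.

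The coat subunits of retrograde vesicles did not move together. COPB1 read 12.57, 12.42 and 12.76 with DHT, against 12.83, 12.74 and 13.12 with DMSO, a difference of -0.31, while COPB2 read 12.22, 12.07 and 12.21 with DHT, against 12.19, 11.996 and 11.61 with DMSO, a difference of 0.23. Both overlapped between the groups, and neither passed the test. With flutamide COPB1 differed by -0.14 and COPB2 by -0.08, and with MJC13 by 0.01 and 0.07. KDELR1 (-0.05), SEC23B (0.06) and SEC24D (-0.14), the last 2 being parts of the coat of vesicles that leave the ER, were near 0. In the degradation group, SEL1L, the scaffold of the HRD1 ubiquitin ligase, read 8.30, 6.95 and 7.66 with DHT, against 7.93, 8.22 and 7.52 with DMSO, and EDEM1, which hands misfolded glycoproteins to degradation, read 9.99, 9.63 and 9.94 with DHT, against 9.61, 9.64 and 10.02 with DMSO. Both overlapped. SEL1L differed by 0.10 with flutamide and -0.32 with MJC13, and EDEM1 by -0.07 and -0.10.

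With an antagonist present, no member had a detectable DHT difference. None passed the test for DHT with flutamide against flutamide or DHT with MJC13 against MJC13 (limma, also 0% of all genes in both), and 0 members had an unadjusted p under 0.05 in either, against 2.36% higher and 2.19% lower of all genes with flutamide and 2.9% higher and 2.57% lower with MJC13. The median member difference was 0.01 with flutamide and 0.00 with MJC13. The members between which DHT and no-DHT arrays did not overlap numbered 1 above and 0 below with flutamide, against 3.47% and 3.46% of all genes, and 2 above and 4 below with MJC13, against 5.68% in each direction. The 4 below with MJC13 were SSR4, MANF, SEC61A1 and SPCS1.

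The test of the change itself asks whether an antagonist altered the DHT difference. By limma it called 0 of 36 members for flutamide and 0 for MJC13, and 0% of all genes for either. At an unadjusted p under 0.05 there were 0 members in both. Of all genes, 0.665% were higher and 0.991% lower at that p for flutamide, and 1.48% higher and 1.69% lower for MJC13. These contrasts share the DHT and DMSO arrays with the DHT comparison. The lowest unadjusted p-values with MJC13 were 0.0521 for PDIA6 (-0.58), 0.0528 for SSR4 (-0.58) and 0.0593 for PDIA5 (-0.63). The median change was 0.00 with flutamide and -0.05 with MJC13. When an antagonist was added to DHT, 0 members passed against DHT alone by limma, as did 0% of all genes with either antagonist. At an unadjusted p under 0.05 there were 0 members with flutamide, against 0.499% higher and 0.804% lower of all genes, and 1 with MJC13, against 1.21% higher and 1.64% lower. That member was PDIA5, which differed by -0.44 with flutamide and -0.49 with MJC13 (unadjusted p = 0.0656 and 0.0393, limma adjusted p = 1 for both).

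Without hormone, flutamide and MJC13 called 0 members against DMSO (limma, 0% of all genes in both), and 0 members had an unadjusted p under 0.05, against 1.15% higher and 0.776% lower of all genes with flutamide and 0.714% higher and 0.991% lower with MJC13. The median member difference was -0.02 with flutamide and 0.08 with MJC13, where 25 of 36 members were above 0 against 48.8% of all genes. SSR2, another subunit of the translocon-associated complex, read 13.32, 13.33 and 12.97 with MJC13, against 12.73, 12.57 and 13.05 with DMSO, and PDIA3 differed by 0.41. Both overlapped between the groups. DHT with MJC13 against DHT with flutamide also called 0 members by limma, and 0% of all genes. At an unadjusted p under 0.05 there were 0 members, against 0.596% higher and 0.471% lower of all genes.

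Set by arm, the IRE1/XBP1-type secretory genes stood slightly above 0 with DHT and the PERK and ATF4 genes below it. The IRE1/XBP1-type list took the translocon and vesicle genes with DNAJB9, PDIA5 and EDEM1. The ATF6-type list took the other chaperones, cochaperones and isomerases with SEL1L, and the sensors and factors were in neither. As the targets of XBP1 and ATF6 overlap, other splits are possible, and the medians depend on this one. The 19 tested IRE1/XBP1-type genes, which are members, had a median of 0.10, with 13 above 0, 2 at an unadjusted p under 0.05 and higher (PDIA5 and KDELR3), and 0 passing. The 13 tested ATF6-type folding genes, also members, had a median of -0.03, with 6 above 0 and HSPA5 at an unadjusted p under 0.05 and lower. The 16 PERK and ATF4 genes, from outside the list, had a median of -0.11, with 5 above 0, 3 at an unadjusted p under 0.05 and lower, and 0 passing. Of all genes, 48% were above 0 in this comparison, and 5.55% were higher and 4.05% lower at that p.

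The heat shock and NRF2 lists, also from outside the members, lay in the same range. The 11 cytosolic heat shock genes had a median of 0.13, led by HSPH1 (0.32) and the heat shock factor HSF1 (0.32), and the 8 NRF2 oxidative stress genes had a median of -0.00, with SRXN1 at 0.43 and GCLC at -0.43. None passed. On single arrays, as medians of each gene's deviation from its DMSO mean, the IRE1/XBP1-type genes stood at 0.13, 0.07 and 0.14 with DHT, against 0.03, -0.08 and 0.03 with DMSO. The heat shock genes stood at 0.14, 0.04 and -0.02 with DHT, against 0.07, -0.08 and 0.10 with DMSO. The first list was apart between the groups and the second overlapped, but no test of either list or of the difference between them was made. The DMSO arrays enter the mean from which the deviations are taken, which draws their medians towards it. Standing apart from them on this scale is therefore no measure of a response. The IRE1/XBP1-type genes also stood above all DMSO arrays with MJC13 alone, at 0.06, 0.13 and 0.10. With DHT and flutamide, where DHT was also present, they did so too, at 0.06, 0.11 and 0.04. With flutamide alone and with DHT and MJC13 they overlapped DMSO. Of the groups without DHT, only MJC13 alone thus stood apart from DMSO.

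In the antagonist backgrounds the IRE1/XBP1-type median difference was 0.02 with flutamide and 0.01 with MJC13, and the array medians of that list overlapped in both. The list stood at 0.15, 0.01 and 0.04 with DHT and MJC13, against 0.06, 0.13 and 0.10 with MJC13 alone. The MJC13 difference is taken from the arrays with MJC13 alone, whose medians stood above those of DMSO when measured from the DMSO mean. Whether this bears on the difference was not tested. The ATF6-type median was 0.02 with flutamide and -0.02 with MJC13. The PERK and ATF4 median was -0.09 in both, and the heat shock median 0.11 and 0.10. Members with an ERSE in the promoter had a median DHT difference of -0.16 over 5 genes, and the 28 tested members without one had 0.07. Members with the UPRE had 0.02 over 4 genes, and the 29 without it had 0.01.

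**Figure D3:**
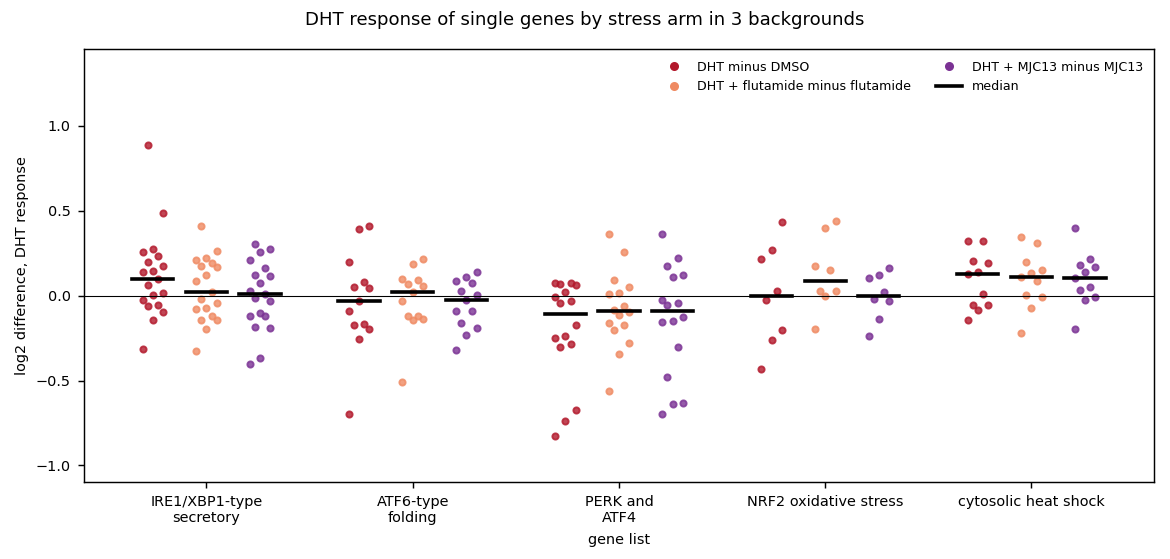
Log2 difference made by DHT for single genes (points) of 5 gene lists, in DMSO, flutamide and MJC13 backgrounds (colours), with the median of each set as a black bar. The IRE1/XBP1-type median is 0.10 in DMSO and 0.02 and 0.01 in the antagonist backgrounds, and the PERK and ATF4 medians are -0.11, -0.09 and -0.09. Each difference is taken from its own background. For the IRE1/XBP1-type list the medians of the arrays with MJC13 alone, measured from the DMSO mean, stood above those of DMSO, which was not tested.

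PPP1R15A and DDIT3, which act late in the PERK and ATF4 arm, had its lowest unadjusted p-values with DHT. PPP1R15A, the phosphatase subunit GADD34 that restores translation, read 7.70, 7.91 and 7.46 with DHT, against 8.19, 8.56 and 8.33 with DMSO. DDIT3, the transcription factor CHOP, read 9.35, 9.65 and 9.83 with DHT, against 10.37, 10.18 and 10.51 with DMSO. Neither gene overlapped between the groups, and their differences were -0.67 (limma adjusted p = 0.263) and -0.74 (adjusted p = 0.225).

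The means of both genes were also lower with DHT when an antagonist was present. PPP1R15A read 7.89, 8.05 and 7.66 with DHT and flutamide, against 8.25, 8.75 and 8.29 with flutamide alone, and 7.33, 7.90 and 7.35 with DHT and MJC13, against 8.21, 8.15 and 8.14 with MJC13 alone. DDIT3 read 9.72, 10.50 and 10.19 with DHT and flutamide, against 10.50, 10.19 and 10.56 with flutamide alone, and 9.71, 10.18 and 10.05 with DHT and MJC13, against 10.64, 10.40 and 10.81 with MJC13 alone. The groups were apart in all but the flutamide comparison of DDIT3. NUPR1, a stress-induced cofactor, was the third gene at an unadjusted p under 0.05, with a difference of -0.83 (limma adjusted p = 0.472).

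**Figure D4:**
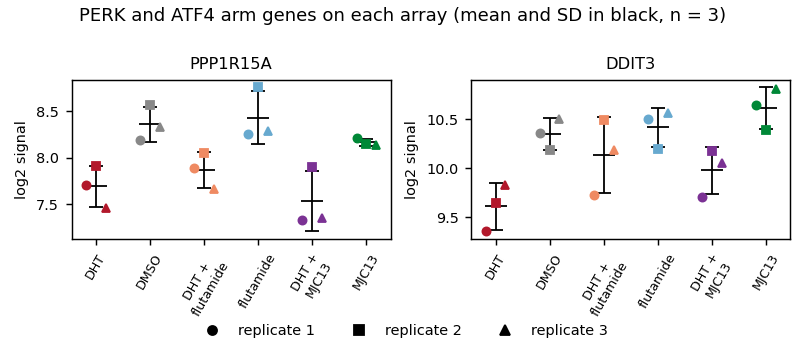
Log2 signal of PPP1R15A and DDIT3 on every array (symbols give the replicate number), with group mean and SD in black (n = 3). PPP1R15A reads 7.33 to 8.05 on the 9 arrays with DHT and 8.14 to 8.75 on the 9 arrays without it.

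A comparison added after these values had been seen averaged the DHT difference over the 3 backgrounds. It called 144 of 14433 genes higher (0.998%) and 38 lower (0.263%), and 0 of 36 members (limma), with 2 members higher and 1 lower at an unadjusted p under 0.05, against 7.65% and 5.97% of all genes. PDIA5 came nearest, at 0.52 (SE 0.13, adjusted p = 0.0645), ahead of KDELR3 at 0.34 and HSPA5 at -0.46 (adjusted p = 0.208 for both). PDIA5 passed in only 2 of the 18 fits that left out 1 array. These were without flutamide replicate 3 (adjusted p = 0.0435) and without DHT with MJC13 replicate 2 (adjusted p = 0.0126). It failed in the other 16, with adjusted p reaching 0.159. PPP1R15A fell by 0.62 (adjusted p = 0.0136) and passed in each of the 18 fits that left out 1 array. DDIT3 fell by 0.55 (adjusted p = 0.0375) but passed in only 3 of those 18 fits, the ones without replicate 2 of DHT with flutamide, of flutamide or of DHT with MJC13, with adjusted p reaching 0.0907. Since PPP1R15A, DDIT3, PDIA5, KDELR3 and HSPA5 drew attention in the same arrays, this average is no independent support for any of them.

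Other genes of the pathway, 67 tested of 74 listed, gave a median of 0.04 with DHT. By limma 0 passed the test, beside 0.201% of all genes higher and 0.00693% lower. At an unadjusted p under 0.05, 3 were higher and 0 lower, against 5.55% and 4.05% of all genes. FKBP11, a prolyl isomerase of secretory cells, read 11.43, 11.49 and 11.85 with DHT, against 10.63, 11.20 and 10.77 with DMSO, without overlap and with a difference of 0.72 (limma adjusted p = 0.41). Every DHT array lay above every DMSO array for 8.43% of all genes. ERO1A, the oxidase that recharges disulfide isomerases, read 10.03, 9.17 and 9.74 with DHT, against 8.77, 9.43 and 8.82 with DMSO, a difference of 0.64 with overlap (adjusted p = 0.467). COPZ1, a coat subunit, was the third, at 0.56. By role, the medians were 0.09 over 23 folding and degradation genes, 0.02 over 13 targeting and translocation genes, 0.04 over 22 vesicle genes and -0.05 over 9 glycosylation genes.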

How the data were processed

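Total RNA of LNCaP cells was labelled with biotin and read on Illumina bead arrays, 18 in all. The deposited log2 values came from signals that the authors exported from GenomeStudio and then processed in lumi, by background subtraction and quantile normalization. The versions of both are not given in the sources used here, nor whether the log2 was plain or variance-stabilized. Every array had the same median of 6.60, so a shift of the whole array cannot be seen. A table of signals before normalization was not used, because none of its 36 columns of values could be tied to a sample.

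Probes were named through the platform's annotation (30111 of 47223 with 1 symbol, 8 with several, 17104 with none), and the 28334 whose mean over all arrays exceeded 6.31, the 40th percentile of such means, entered the tests. A model with 6 group means over 18 arrays (12 residual degrees of freedom) was fitted with limma 3.58.1 in R 4.3.3 (lmFit, contrasts.fit, eBayes), with Benjamini-Hochberg adjustment over all probes and a threshold of 0.05, and was tested on simulated data. Each gene was read through its brightest probe. Values were given for all sensors, and in each other role group for the 3 members (2 for degradation) with the lowest unadjusted p for DHT against DMSO, with others where a comparison turned on them. The members and lists were chosen with earlier results of these data known, so lists are described by counts and medians, with no test. Groups and replicate numbers were taken from the sample titles. In 11 of 18 arrays the description gives another number than the title. The labels give a DHT dose of 10 nM and the study's methods a lower one, and the labels' dose is used here. Alternatives were no filter or a stricter one, a replicate block by title or description number, only the groups compared, trended and robust moderation, other thresholds, other probe choices and leaving out each array. Promoters were read from RefSeq (GRCh38.p14), the first listed per gene. PDIA3, SPCS1, KDELR2 and SEC24D were not searched. The number of arrays limits the precision.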

Additional observations from a re-analysis of the deposited data

How the results depend on the processing

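The count of members passing the test stayed at 0 in each of the 11 main comparisons, under every alternative and with each array left out. In the averaged DHT comparison, added later, it was 2 with the replicate number of the titles as a block (PDIA5, adjusted p = 0.0279, and HSPA5, adjusted p = 0.0263) and 0 to 1 when 1 array was left out. With that block, 520 genes were higher and 278 lower in the averaged comparison, against 144 and 38 without it. Same-numbered arrays deviated together in 5 of 15 pairs of groups (every r above 0.1), such as DHT and DHT with flutamide (r of 0.39, 0.55 and 0.39). DHT and DMSO were not among them (r of 0.018, 0.073 and 0.095). By this measure the numbers pair some groups and not others. With that block, 469 probes passed for DHT against DMSO instead of 54, PDIA5 reached an adjusted p of 0.054 and HSPA5 0.0892, and PPP1R15A passed at 0.0387.

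With the description number as block, the median change by flutamide was -0.065 and the median difference between the antagonists -0.043, and 3 single genes turned sign: the change by MJC13 of EIF2AK3 (-0.13) and of SSR3 (0.036) and the change by flutamide of SSR4 (-0.072). The cause was not tested. Leaving out 1 array gave medians from 0.016 to 0.074 for DHT against DMSO, -0.034 to 0.034 for DHT with MJC13 against MJC13, -0.035 to 0.042 for DHT with MJC13 against DHT, -0.067 to -0.017 for DHT with flutamide against DHT, 0.043 to 0.091 for MJC13 against DMSO, -0.041 to 0.060 for DHT with flutamide against flutamide, -0.076 to -0.0033 for flutamide against DMSO, -0.089 to -0.0040 for the change by flutamide, -0.10 to 0.0024 for the change by MJC13 and -0.076 to 0.060 for the difference between the antagonists.

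Single genes also changed sign when 1 array was left out. For DHT against DMSO they were ATF6 (-0.21 to 0.067), EIF2AK3 (-0.39 to 0.17), PDIA4 (-0.0033 to 0.18) and SEL1L (-0.59 to 0.089). Others kept their sign for DHT against DMSO but moved by over 1.5 times: XBP1 (-0.28 to -0.081), CREB3L4 (0.11 to 0.50), MANF (0.085 to 0.31), PDIA6 (0.23 to 0.56), SPCS2 (0.16 to 0.34), SSR3 (0.064 to 0.49), SSR4 (0.015 to 0.28), COPB1 (-0.40 to -0.20), COPB2 (0.075 to 0.36) and EDEM1 (0.023 to 0.23). MANF, SPCS2, SSR3, SSR4 and COPB2 were lowest, and CREB3L4, COPB1 and EDEM1 highest, without DMSO replicate 3, and CREB3L4 and PDIA6 were lowest without DHT replicate 2. For the change by flutamide the genes that changed sign were ATF6 (-0.063 to 0.22), EIF2AK3 (-0.19 to 0.37), HSPA5 (-0.11 to 0.51), PDIA4 (-0.076 to 0.22) and SSR4 (-0.19 to 0.19). For the change by MJC13 they were XBP1 (-0.21 to 0.031), ATF6 (-0.0078 to 0.27), EIF2AK3 (-0.050 to 0.51), CREB3L4 (-0.25 to 0.14), PDIA4 (-0.13 to 0.083), SSR3 (-0.33 to 0.12) and SEL1L (-0.41 to 0.27). With 3 arrays a group and a 95% interval that reached 0.40 to either side in the median member, smaller differences could not be resolved. Larger ones could also fail the stricter threshold on adjusted p, as that of PDIA5 did.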
